A study of Mus musculus with 18 samples.

Results

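The 7 genes *Penk*, *Ptn*, *Mfap4*, *Thbs3*, *Tnn*, *Tppp3* and *Zfp185* were taken as a set because of lower counts in Fgfr2+/S252W than in Fgfr2+/+ bone, that is, they were chosen by the genotype difference in bone measured in the libraries described here. Fgfr2+/S252W is a mouse model of Apert syndrome, and the controls were littermates. They are 7 of the 38243 genes counted, found by symbol, and all 7 were among the 11469 genes that exceeded 1 FPKM (a fragment count scaled to exon length and library size) in at least 50% of the libraries. All embryos were female, on a C57BL/6 background and at embryonic day 16.5 (E16.5). In the mutants one allele of Fgfr2 carried the S252W change, and the labels name no treatment for either genotype. Coronal cryosections were dissected by laser capture, and RNA was amplified before sequencing. There were 18 libraries, 3 in each of 6 groups, from Fgfr2+/S252W and Fgfr2+/+ embryos and from mandibular bone, Meckel's cartilage (MC) and the mandibular condylar cartilage. As inferred from the labels, the 3 libraries of a group were taken to come from different embryos, each giving 1 library per tissue.

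Mandibular bone forms directly from mesenchyme beside MC, a cartilage rod, and a fibrous layer, the periosteum, surrounds the growing bone. The matrix of such connective tissue holds collagens, elastic microfibrils, and glycoproteins such as thrombospondins and tenascins that bind cells and growth factors. *Mfap4* encodes a microfibril-associated glycoprotein, *Thbs3* a thrombospondin, and *Tnn* tenascin N, also called tenascin-W, which is found in periosteum. *Ptn* encodes pleiotrophin, a secreted heparin-binding growth factor, and *Penk* encodes proenkephalin, the precursor of the enkephalin opioid peptides. *Tppp3* encodes a microtubule-bundling protein known from tendon sheath cells, and *Zfp185* a LIM-domain protein of the actin cytoskeleton. The last 2 proteins are therefore intracellular, whereas the other 5 genes encode secreted products.

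Libraries held between 8218548 and 15585778 counts. Mitochondrial genes took 36.0, 34.8 and 20.4% of the counts in Fgfr2+/+ bone replicates 1, 2 and 3 and 23.4 to 23.6% in Fgfr2+/S252W bone. *Gm42418*, which overlaps ribosomal RNA sequence, took 8.57 to 9.33% in Fgfr2+/+ and 5.58 to 6.49% in Fgfr2+/S252W bone, 24.1 to 39.4% in MC and 10.9 to 20.2% in condylar cartilage. Levels of *Fgfr2* overlapped between the genotypes in each tissue, and counts per gene do not separate the alleles. *Col2a1*, the cartilage collagen gene, stood at 19339 to 25475 CPM (counts normalized to library size) in condylar cartilage, at only 212 to 7201 in the libraries labelled MC, and at 37.3 to 309 in bone. The summed level of 12 chondrocyte markers was likewise 38497 to 46262 CPM in condylar cartilage and 1090 to 11901 in MC, which means that the MC libraries were poor in the defining transcripts of cartilage. The lowest of these sums belonged to Fgfr2+/+ MC replicate 1, which also stood apart in *Tnn*. Several values of the 7 genes that rest on this library are given with and without it. The summed level of 13 osteoblast markers was 39547 to 77517 CPM in bone, above 3708 to 7161 in MC. Fgfr2+/+ bone replicate 3 stood apart from the other controls in this sum, at 77517 against 44558 and 39547 CPM, as in mitochondrial counts. In condylar cartilage the sum was 12608 to 37191 CPM, and replicate 3 was highest in both genotypes, at 24343 CPM in Fgfr2+/+ and 37191 in Fgfr2+/S252W.

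In bone, the secreted signals *Penk* and *Ptn* were both lower in the mutants. *Penk* (ENSMUSG00000045573, minus strand, chr4:4133531-4138819) had 23.8, 17.3 and 15.9 CPM in Fgfr2+/+ replicates 1, 2 and 3, and 5.27, 5.27 and 4.23 CPM in the Fgfr2+/S252W libraries. Every mutant library lay below every control, and the log2 fold change was -1.92 (SE 0.29), or 3.78-fold lower. *Ptn* (ENSMUSG00000029838, minus strand, chr6:36715663-36811361) had 249, 256 and 143 CPM in Fgfr2+/+ and 109, 118 and 103 CPM in Fgfr2+/S252W bone. The gap between the lowest control and the highest mutant was only 1.21-fold, and control replicate 3 stood close to the mutants. Its log2 fold change was -0.92 (SE 0.31). Because tissue was sampled in bulk, fewer cells that express a gene and less RNA per cell cannot be told apart here.

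The 3 matrix glycoprotein genes were also lower in mutant bone, by less than *Penk*. *Mfap4* (ENSMUSG00000042436, plus strand, chr11:61485431-61488900) had 109, 89.5 and 78.1 CPM in Fgfr2+/+ and 41.1, 42.3 and 40.7 CPM in Fgfr2+/S252W bone, a log2 fold change of -1.14 (SE 0.27). The mutants were nearly uniform, at 41.4 ± 0.84 CPM (SD, n = 3), while the controls were at 92.2 ± 15.6. *Thbs3* (ENSMUSG00000028047, plus strand, chr3:89215180-89226837) had 16.995, 15.3 and 16.5 CPM in Fgfr2+/+ and 8.19, 8.20 and 5.94 CPM in Fgfr2+/S252W bone. Its controls were the least variable of the set, with a highest library 1.11 times the lowest, and its log2 fold change was -1.14 (SE 0.29). *Tnn* (ENSMUSG00000026725, minus strand, chr1:160085036-160153580) had 152, 103 and 115 CPM in Fgfr2+/+ and 80.2, 73.2 and 62.2 CPM in Fgfr2+/S252W bone. It differed least, with a log2 fold change of -0.77 (SE 0.37), and the groups were still separate. Of the 1794 exon bases of *Mfap4*, 89 are shared with *Mapk7* on the opposite strand, and counting ignored strand.

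The largest differences were in the 2 cytoskeletal genes, which were also among the least abundant. *Tppp3* (ENSMUSG00000014846, minus strand, chr8:105467493-105471526) had 10.8, 8.44 and 4.91 CPM in Fgfr2+/+ and 1.02, 1.24 and 1.28 CPM in Fgfr2+/S252W bone. *Zfp185* (ENSMUSG00000031351, plus strand, chrX:72987339-73031543) had 16.0, 12.6 and 7.40 CPM in Fgfr2+/+ and 1.54, 2.53 and 2.03 CPM in Fgfr2+/S252W bone. In both, control replicate 1 was highest and replicate 3 lowest, and all mutants were below 3 CPM. The log2 fold changes were -2.65 (SE 0.43) and -2.47 (SE 0.45). Leaving out each bone library in turn, the log2 fold change ran from -3.00 to -2.39 for *Tppp3*, from -2.81 to -2.22 for *Zfp185*, from -2.04 to -1.75 for *Penk* and from -1.19 to -0.77 for *Ptn*. Without control replicate 3, which stood apart and held far less muscle RNA than the other controls, the log2 fold changes in bone were -3.00 for *Tppp3*, -2.81 for *Zfp185*, -2.04 for *Penk*, -1.26 for *Mfap4*, -1.19 for *Ptn*, -1.12 for *Thbs3* and -0.81 for *Tnn*. Mutant values of *Tppp3* rest on 20 to 28 fragments per library and those of *Zfp185* on 30 to 57.

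These bone values chose the genes and are therefore given without a test. All 7 genes had groups that did not overlap with the mutants lower, as did 9.70% of all genes tested, and 3 of 7 had an adjusted p below 0.05 in limma's fit, as did 0.0872% of all genes in either direction and 0.0523% with the mutants lower. These counts follow from how the genes were chosen, and nothing is read from them. The median log2 fold change of the 7 was -1.14 and that of all genes tested was 0.00 when rounded.

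**Figure D1:**
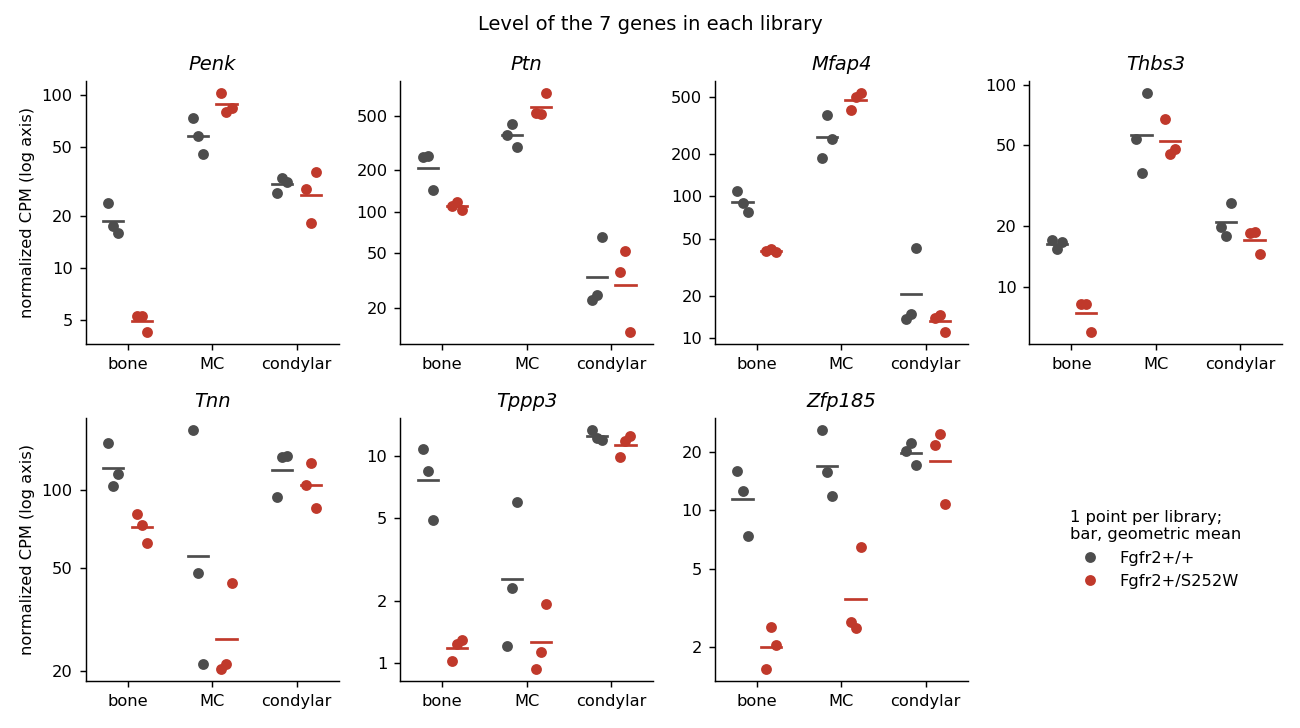
Normalized CPM of each of the 7 genes (log axis) in the 18 libraries by tissue, with 1 point per library, grey for Fgfr2+/+ and red for Fgfr2+/S252W, and bars at the geometric means. In bone all red points lie below all grey points, whereas in MC *Penk*, *Ptn* and *Mfap4* show the opposite order and in condylar cartilage the colours overlap for every gene.

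Promoter sequences are shown for the genes with an entry among the RefSeq promoters of GRCm38.p6, because these genes were lower together in bone. Entries were found for 4 of the 7, and none is shown for *Penk*, *Tppp3* and *Mfap4*. Each sequence covers 250 bases before the RefSeq start of the gene and 50 after it, 5′ to 3′ on the strand of the gene. Capitals mark matches, on either strand, to CCAAT, to the GC box GGGCGG or to the TEAD motif GGAATG. In *Zfp185* the CCAAT match shares bases with a GC box, and the last 2 GC boxes overlap each other.
Ptn (chr6:36810130-36810429, minus strand): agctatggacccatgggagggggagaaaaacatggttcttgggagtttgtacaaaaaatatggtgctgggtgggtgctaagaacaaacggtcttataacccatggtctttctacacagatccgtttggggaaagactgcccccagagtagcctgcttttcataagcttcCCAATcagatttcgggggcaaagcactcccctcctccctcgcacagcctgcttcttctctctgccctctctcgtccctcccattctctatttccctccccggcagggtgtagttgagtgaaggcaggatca
Thbs3 (chr3:89214930-89215229, plus strand): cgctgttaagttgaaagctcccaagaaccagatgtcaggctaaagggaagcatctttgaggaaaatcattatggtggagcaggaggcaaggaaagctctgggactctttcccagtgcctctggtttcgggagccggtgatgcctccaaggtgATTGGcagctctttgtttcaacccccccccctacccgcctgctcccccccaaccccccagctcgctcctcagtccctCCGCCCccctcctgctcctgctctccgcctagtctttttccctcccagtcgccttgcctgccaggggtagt
Tnn (chr1:160153526-160153825, minus strand): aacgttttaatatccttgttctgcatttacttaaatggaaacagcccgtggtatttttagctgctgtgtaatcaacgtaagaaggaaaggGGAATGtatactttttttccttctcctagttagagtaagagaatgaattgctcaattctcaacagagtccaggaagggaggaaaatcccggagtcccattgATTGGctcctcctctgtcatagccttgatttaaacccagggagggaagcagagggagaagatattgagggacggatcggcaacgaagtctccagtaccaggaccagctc
Zfp185 (chrX:72987089-72987388, plus strand): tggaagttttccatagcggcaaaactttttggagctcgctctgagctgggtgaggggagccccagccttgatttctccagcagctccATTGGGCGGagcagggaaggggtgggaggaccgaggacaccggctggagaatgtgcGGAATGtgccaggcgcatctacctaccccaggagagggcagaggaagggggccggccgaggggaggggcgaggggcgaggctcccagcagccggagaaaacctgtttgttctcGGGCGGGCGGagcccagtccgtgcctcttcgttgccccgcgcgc
The letters CCAAT occurred in 4 of the 4 windows and in 37.4% of all 32851 RefSeq promoters of the same length. GGGCGG occurred in 2 of them, *Thbs3* and *Zfp185*, and in 35.7% of all promoters. GGAATG occurred in *Tnn* and *Zfp185* and in 14.7% of all. The TATA box TATAAA, the AP-1 motif TGANTCA and the RUNX motif TGTGGT, held by 13.6, 7.81 and 16.8% of all promoters, had 0 matches in the 4 windows. These matches describe letters only and say nothing of binding. GC content was 65.3% in the *Zfp185* window, 59.0% in *Thbs3*, 52.0% in *Ptn* and 44.3% in *Tnn*, around a median of 52.7% over all promoters.

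Scaled for exon length, the 7 genes covered a wide range of levels in control bone. *Ptn* was highest at 107 ± 31.3 FPKM (SD, n = 3), followed by *Mfap4* at 51.4 ± 8.71, *Tnn* at 21.2 ± 4.36 and *Penk* at 11.6 ± 2.56 FPKM. Libraries of these 4 did not overlap between neighbours in that order. *Thbs3* at 5.11 ± 0.27, *Tppp3* at 4.36 ± 1.61 and *Zfp185* at 3.24 ± 1.17 FPKM followed, and neighbours among them overlapped. Among all genes tested, *Ptn* lay at the 98.4th percentile in control bone and the 96.6th in mutant bone. *Tppp3* went from the 47.9th percentile in control bone to the 2.35th in mutant bone, and *Zfp185* from the 37.3rd to the 1.76th. *Penk* stood at the 78.4th and the 35.7th.

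The next question was in which control tissue these genes were most abundant, and bone was the highest of the 3 for *Tnn* alone. *Penk*, *Ptn*, *Mfap4* and *Thbs3* had their highest mean in MC. *Penk* had 73.6, 58.2 and 45.6 CPM in Fgfr2+/+ MC and 27.1, 33.1 and 31.5 CPM in condylar cartilage. Its control levels fell in the order MC, condylar cartilage and bone with no overlap between neighbours. *Thbs3* followed the same order, with 53.8, 36.3 and 90.9 CPM in MC and 19.8, 17.8 and 25.9 CPM in condylar cartilage, its bone libraries lying just below the latter. For *Ptn*, Fgfr2+/+ MC libraries had 362, 437 and 297 CPM and condylar cartilage libraries 22.8, 24.8 and 65.0 CPM. *Mfap4* had 186, 377 and 254 CPM in MC and 13.6, 14.8 and 43.5 CPM in condylar cartilage. For these 2 genes bone lay between the cartilages, and none of the 3 tissues overlapped.

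The cytoskeletal genes and *Tnn* were ordered differently. *Tppp3* was highest in condylar cartilage, at 13.4, 12.1 and 11.9 CPM, and had 1.21, 2.30 and 6.00 CPM in MC, whose highest library exceeded the lowest of bone. *Zfp185* had 20.1, 22.2 and 17.1 CPM in condylar cartilage and 25.9, 15.7 and 11.8 CPM in MC, and MC overlapped with both other tissues, while bone lay below condylar cartilage. *Tnn* had 93.3, 134 and 135 CPM in condylar cartilage, close to its level in bone. In MC its 3 controls were at 170, 47.4 and 21.2 CPM, a spread wider than the other tissues together.

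Control bone took part in choosing the genes, so only the 2 cartilages were compared by a test. In limma's fit with the embryo as a random block, 5 of the 7 genes differed between control condylar cartilage and MC, against 44.5% of all genes tested. With the mitochondrial genes and *Gm42418* left out, 5 of 7 passed as well. *Mfap4* was 12.7-fold lower in condylar cartilage (log2 difference -3.66, SE 0.32, limma adjusted p = 2.27e-08) and *Ptn* 11.0-fold lower (-3.46, SE 0.36, limma adjusted p = 2.92e-07). *Thbs3* was lower by 2.69-fold (limma adjusted p = 0.000176) and *Penk* by 1.96-fold (limma adjusted p = 0.0019). *Tppp3* was 5.38-fold higher in condylar cartilage (log2 difference 2.43, limma adjusted p = 0.000227). Its log2 difference was 1.76 without Fgfr2+/+ MC replicate 1 and 2.95 without replicate 3, and it passed in both. *Zfp185* did not pass, with a log2 difference of 0.12 and a 95% interval from -0.60 to 0.84. Leaving out single libraries, this difference ran from -0.11 to 0.57. *Tnn* did not pass with all libraries (0.92, limma adjusted p = 0.0927), but without Fgfr2+/+ MC replicate 1 its log2 difference was 1.94 (limma adjusted p = 0.000109, the lowest over all settings, the highest being 0.507). The median log2 difference was -0.97 over the 7 genes and 0.02 over all genes tested.

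The genotypes were then compared in the 2 cartilages, whose libraries had no part in choosing the genes. Here and between the control cartilages, the fit took each gene's residual variance from all 18 libraries, bone included. Its p-values are therefore not fully independent of the choice. In MC the 7 genes did not move one way. *Penk* had 102, 79.3 and 84.2 CPM in Fgfr2+/S252W MC, all above the controls given above. *Ptn* had 529, 515 and 734 CPM and *Mfap4* 405, 504 and 536 CPM in mutant MC, again without overlap. Among all genes tested, 6.71% had the mutants higher without overlap in MC, and the 3 genes here were the signals and the microfibril gene that were lower in bone. Their log2 fold changes were 0.58 (SE 0.22) for *Penk*, 0.70 (SE 0.31) for *Ptn* and 0.89 (SE 0.25) for *Mfap4*. The limma adjusted p-values over all genes were 0.231, 0.295 and 0.126, and none passed.

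*Zfp185* had 2.67, 2.48 and 6.48 CPM in mutant MC against 11.8 to 25.9 in control MC, and was the only one of the 7 lower in the mutants without overlap in both bone and MC. For MC this pattern held in 6.67% of all genes. The log2 fold change of -2.34 (SE 0.56) did not pass in limma's fit of all libraries (adjusted p = 0.0939), and passed in edgeR's quasi-likelihood test (adjusted p = 0.0296) and in DESeq2 (adjusted p = 0.00016). Limma's adjusted p was 0.0498 without Fgfr2+/+ MC replicate 3 and 0.186 without replicate 1, and over all settings the adjusted p ran from 0.00016 to 0.738. Leaving out single libraries, the log2 fold change of *Zfp185* ran from -2.75 to -1.91. The mutant values rest on 11 to 37 fragments. *Tnn* had 20.3, 21.2 and 43.8 CPM in mutant MC and overlapped with the controls. The log2 difference between genotypes, -1.24 (SE 0.54) at a limma adjusted p of 0.288, became -0.24 without Fgfr2+/+ MC replicate 1. *Tppp3*, at 0.94, 1.13 and 1.93 CPM or 5 to 11 fragments in mutant MC, overlapped with the controls, and differed by -0.79 on the log2 scale (SE 0.67) at a limma adjusted p of 0.602. This difference was -1.50 without Fgfr2+/+ MC replicate 1 and -0.27 without replicate 3. *Thbs3* had 67.5, 45.5 and 47.8 CPM in mutant MC and a log2 fold change of -0.06 with a 95% interval from -0.59 to 0.46.

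In MC limma therefore called 0 of the 7 genes, and 0.00% of all genes tested. At an unadjusted p below 0.05 it gave 5 of 7, against 15.4% of all genes. Calls were made for 1 of 7 by edgeR (0.785% of all genes) and 2 of 7 by DESeq2 (3.77% of all genes), the second being *Tnn*. Without Fgfr2+/+ MC replicate 2, *Mfap4* passed in limma's fit at an adjusted p of 0.0415, its log2 fold change then being 1.16. It was 0.64 without replicate 1, and over all settings its adjusted p ran up to 0.738. The summed chondrocyte markers were at 11901, 3346 and 3342 CPM in mutant and 1090, 4513 and 4582 CPM in control MC, and 11 of the 11 tested had positive log2 fold changes. This order rested on replicate 1 of both genotypes, and the other 2 mutants lay below the other 2 controls. The summed osteoclast markers were at 138 to 159 CPM in mutant and 208 to 351 CPM in control MC. Each of these lists had 5 genes at an unadjusted p below 0.05. Macrophage markers summed to 112 to 168 CPM in mutant and 43.2 to 91.1 CPM in control MC, with 5 of the 5 tested higher and 4 at an unadjusted p below 0.05. Tendon and ligament markers, at 3258 to 3449 against 2703 to 3012 CPM, and nerve and Schwann cell markers, at 11.9 to 22.2 against 4.92 to 7.87 CPM, were also higher without overlap. Of 17 elastic fiber and microfibril genes tested, 14 were higher and 6 had an unadjusted p below 0.05. None of these lists had a call by limma in MC, and their part in the values of the 7 genes was not tested.

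In condylar cartilage the genotypes overlapped for all 7 genes. Among all genes tested, 9.77% had groups that did not overlap, so overlap in all 7 is near that share and is no result about them. Mutant levels were 28.5, 18.05 and 35.5 CPM for *Penk*, 36.2, 51.6 and 13.2 for *Ptn*, and 14.0, 14.7 and 11.0 for *Mfap4*. *Tppp3* had 9.91, 11.8 and 12.4 CPM and *Zfp185* 21.6, 24.8 and 10.8 CPM in the mutants, whose replicate 3 lay below the lowest control of 17.1 for *Zfp185*. *Thbs3* had 18.4, 18.7 and 14.5 CPM and *Tnn* 104, 126 and 84.9 CPM. Log2 fold changes ran from -0.60 for *Mfap4* to -0.07 for *Zfp185*, with a limma adjusted p of 0.998 for each. The value for *Mfap4* rested on Fgfr2+/+ replicate 3, the highest control, and was -0.08 without it. For *Tppp3* the 95% interval was -0.75 to 0.43 and for *Zfp185* -0.71 to 0.58. The interval was widest for *Ptn*, from -0.95 to 0.78, and its log2 fold change was 0.38 without replicate 3 of either genotype. Without Fgfr2+/S252W replicate 3, that of *Zfp185* was 0.23. In condylar cartilage limma called 0 of 7 and 0.00% of all genes, with 0 of 7 and 3.06% at an unadjusted p below 0.05. By edgeR and DESeq2 0 of the 7 were called, against 0.00 and 0.0262% of all genes.

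**Figure D2:**
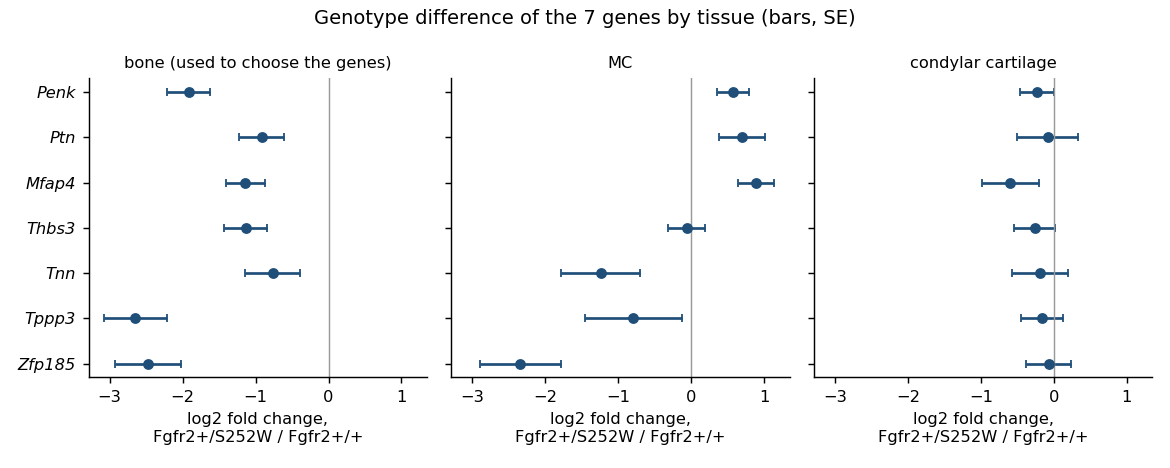
Log2 fold change between Fgfr2+/S252W and Fgfr2+/+ of the 7 genes in bone, MC and condylar cartilage, with bars of 1 SE from limma's fit of 18 libraries. In bone all 7 lie between -2.65 and -0.77, in MC they spread from -2.34 to 0.89, and in condylar cartilage they lie between -0.60 and -0.07.

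The difference between the genotype effects of the 2 cartilages was tested directly. It was largest for *Zfp185*, at 2.27 (SE 0.64, limma adjusted p = 0.261), and for *Mfap4*, at -1.49 (SE 0.47, limma adjusted p = 0.315), where a positive value means a higher fold change in condylar cartilage than in MC. For *Mfap4* it was -0.98 without Fgfr2+/+ condylar cartilage replicate 3. For *Penk* it was -0.81 (SE 0.32, limma adjusted p = 0.448). Limma called 0 of 7 and 0.00% of all genes for this difference, and at an unadjusted p below 0.05 it gave 3 of 7 and 9.51% of all genes. With edgeR 0 of 7 were called (0.00% of all genes) and with DESeq2 1 of 7, *Zfp185*, with an adjusted p of 0.0338 (0.855% of all genes), the lowest over settings that reached 0.599.

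Muscle transcripts also differed between the bone libraries, so the 7 genes were set beside them. *Mylpf*, a fast skeletal myosin light chain gene, had 31.7, 35.1 and 4.91 CPM in Fgfr2+/+ bone and 0.31, 1.46 and 4.76 CPM in Fgfr2+/S252W bone. *Acta1*, skeletal muscle actin, had 46.4, 29.6 and 3.78 CPM in the controls and 0.41, 1.37 and 4.07 CPM in the mutants. The 24 muscle markers together were at 989, 892 and 165 CPM in the controls and 70.4, 79.7 and 167 CPM in the mutants, and 1 to 8 of them had 0 counts in a given bone library. Replicate 3 of either genotype thus held about the same amount of muscle RNA, while control replicates 1 and 2 held far more. Of the 24 markers 7 passed the filter, and all 7 had negative log2 fold changes in bone, with a median of -3.25. None was called by limma, and 7 had an unadjusted p below 0.05, as had 8.13% of all genes tested.

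Between the 2 replicate 3 libraries, a pair chosen after the values were seen, all 7 genes were lower in the mutant. Since control and mutant bone libraries overlapped for none of the 7, any such pair had to give this direction, and only the sizes are described. *Penk* was 3.77-fold lower in this pair, *Tppp3* 3.82-fold, *Zfp185* 3.64-fold and *Thbs3* 2.78-fold. For *Mfap4* the difference was 1.92-fold, for *Tnn* 1.85-fold and for *Ptn* 1.38-fold. One library stands on either side, so these folds have no replicate check.

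Within the genotypes the genes did not follow muscle RNA in one way. Among the 3 controls, replicate 3 had the least *Mylpf* and the lowest level of 5 of the 7 genes, *Penk*, *Ptn*, *Mfap4*, *Tppp3* and *Zfp185*. *Thbs3* and *Tnn* were lowest in replicate 2, which had the most *Mylpf*. Among the 3 mutants, replicate 3 had the most *Mylpf* and yet the lowest level of *Penk*, *Ptn*, *Mfap4*, *Thbs3* and *Tnn*, whereas *Tppp3* alone was highest there. *Mylpf* differed 7.14-fold between the highest and lowest control and 15.5-fold between mutants. The 7 genes differed at most 2.21-fold between controls and 1.65-fold between mutants. Whether tissue captured along with muscle entered their values was not tested. With 3 libraries in each genotype, no correlation was computed.

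With the summed muscle level as a covariate in the 6 bone libraries, the log2 fold changes of all 7 genes remained negative. They were -1.77 for *Tppp3*, -1.66 for *Penk*, -1.63 for *Zfp185*, -1.27 for *Thbs3*, -0.87 for *Mfap4*, -0.76 for *Tnn* and -0.32 for *Ptn*. Limma then called 0 of 7 and 0.00% of all genes, against 7 of 7 and 1.14% in the same 6 libraries without the covariate. Genotype and muscle level overlap little in these libraries, so this fit separates them poorly.

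**Figure D3:**
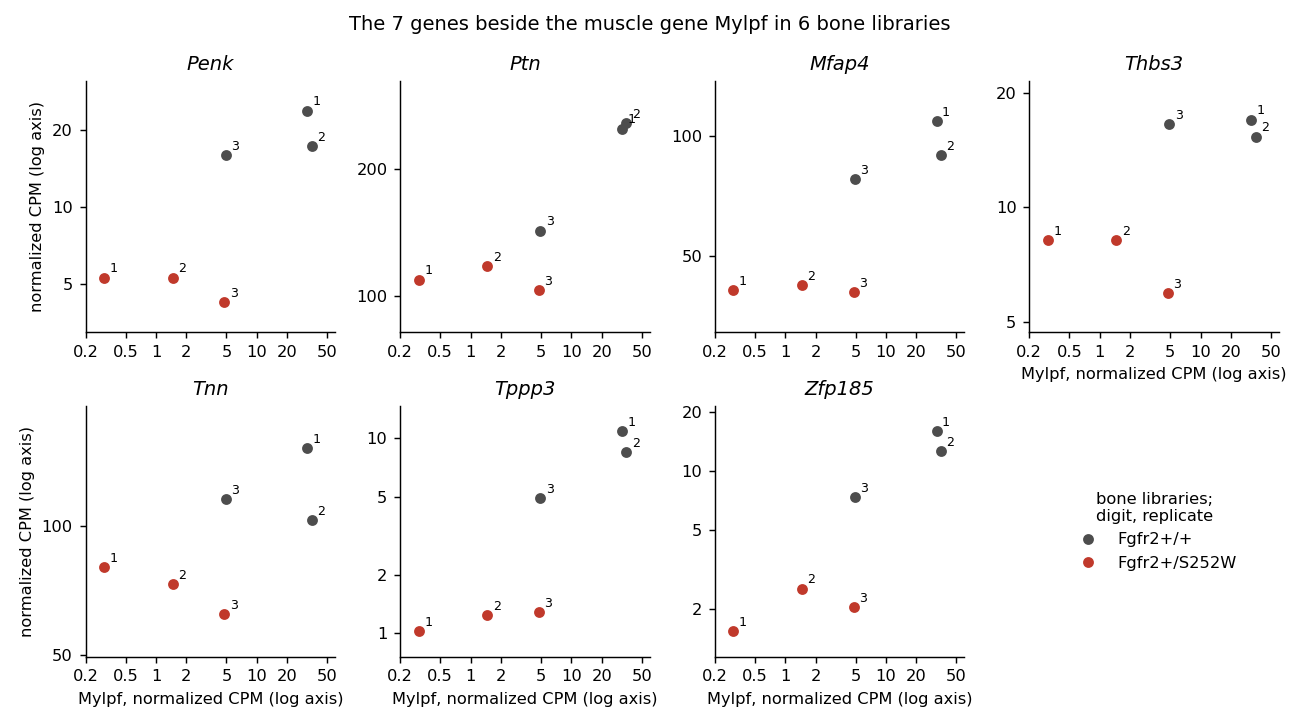
Normalized CPM of each of the 7 genes against normalized CPM of the muscle gene *Mylpf* (both axes logarithmic) in the 6 bone libraries, grey for Fgfr2+/+ and red for Fgfr2+/S252W, with the replicate number beside each point. Replicate 3 lies at 4.91 CPM of *Mylpf* in the control and 4.76 CPM in the mutant, and there the red point is below the grey one in every panel.

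Other RNA contents also differed between bone genotypes. The summed level of 7 erythroid markers was 1281 to 1528 CPM in control and 323 to 614 CPM in mutant bone, and that of 10 osteoclast markers 1024 to 1309 and 1885 to 2580 CPM. Macrophage markers summed to 169 to 197 CPM in control and 219 to 280 CPM in mutant bone, although of the 5 tested 3 were lower and 2 higher, with a median log2 fold change of -1.47 and 4 at an unadjusted p below 0.05. *Lyz2*, the lysozyme gene of macrophages, was the only gene of any list called by limma in bone, and was lower (-1.47, SE 0.28, limma adjusted p = 0.0483). Smooth muscle and pericyte markers were at 205 to 247 CPM in control and 172 to 174 CPM in mutant bone, without overlap. Summed nerve and Schwann cell markers were at 2.61 to 7.76 CPM and epithelial markers at 2.84 to 8.45 CPM over the 6 bone libraries. Mutant bone had 64795, 61909 and 61453 CPM of the 13 osteoblast markers, below control replicate 3 (77517) and above replicates 1 and 2 (44558 and 39547). The part of these contents in the values of the 7 genes was not tested.

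Relatives of the 7 genes and markers of connective tissue were examined for the same difference in bone. The 7 genes were chosen by this difference, so their lower values beside these lists follow from the choice. Since limma called 0.0872% of all genes there and 8.13% had an unadjusted p below 0.05, 0 calls in a short list is no result about it. Of 11 relatives of *Thbs3*, *Tnn* and *Mfap4* by family, 6 were tested and 0 called by limma (1 at an unadjusted p below 0.05), with a median log2 fold change of -0.28. *Tnc*, the tenascin gene most abundant in bone among them, had 0.32 (SE 0.34) and *Thbs2*, another thrombospondin, -0.35 (SE 0.23). *Thbs4*, the gene at an unadjusted p below 0.05, had -1.91 (SE 0.79). Of 19 elastic fiber and microfibril genes, 17 were tested and 0 called (3 at an unadjusted p below 0.05), and 9 were lower and 8 higher, with a median of -0.13. *Lox*, which crosslinks elastin and collagen, had -0.14 (SE 0.22) and *Mfap2*, another microfibril gene, -0.17 (SE 0.24). The 3 at an unadjusted p below 0.05 had both signs, *Fbln1* at 0.89 (SE 0.19), *Fbn1* at -0.79 (SE 0.24) and *Fbln5* at -1.50 (SE 0.42).

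The ligand and receptor relatives of *Ptn* and *Penk* had 0 calls as well. Of 11 genes around pleiotrophin and midkine, 9 were tested and 0 called, with a median of 0.17, and 3 of the 9 had an unadjusted p below 0.05, against 8.13% of all genes. *Mdk*, the midkine gene and closest relative of *Ptn*, had -0.58 (SE 0.32) and *Itgav*, an integrin subunit, 0.55 (SE 0.15). Of 12 opioid precursors, processing enzymes and receptors, 4 were tested and 0 called (0 at an unadjusted p below 0.05), and *Cpe*, a peptide-processing carboxypeptidase, had -0.16 (SE 0.19). Of 10 relatives of *Tppp3* and *Zfp185*, 7 were tested and 0 called (0 at an unadjusted p below 0.05), with a median of 0.02.

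The markers of connective tissue as a whole had log2 fold changes of both signs in bone. Of 26 fibroblast and loose connective tissue markers, 20 were tested and 0 called (2 at an unadjusted p below 0.05, a share near the 8.13% of all genes), 8 were lower and 12 higher, and the median log2 fold change was 0.11. Their summed level was 7201 to 7555 CPM in control and 6772 to 7485 CPM in mutant bone. *Postn*, periostin of the periosteum, had -0.77 (SE 0.24, limma adjusted p = 0.335) and *Vim*, vimentin, 0.14 (SE 0.15). *Ogn*, osteoglycin, named after its value was seen, came closest to the threshold at -1.33 (SE 0.26, limma adjusted p = 0.0545). Of 10 tendon and ligament markers, 6 were tested and 0 called (2 at an unadjusted p below 0.05), with a median of -0.19. The 7 genes are called by name here.

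**Figure D4:**
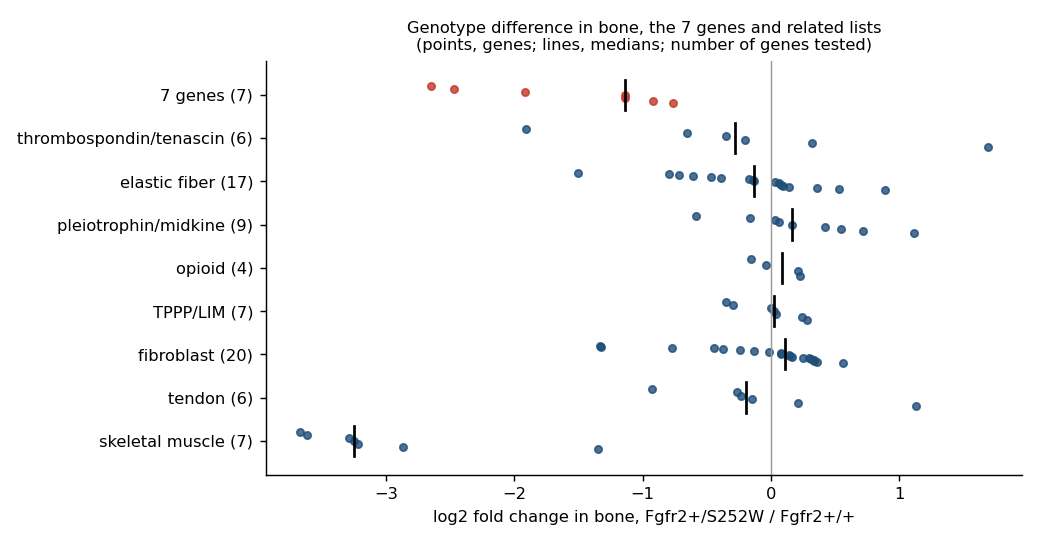
Log2 fold change in bone between Fgfr2+/S252W and Fgfr2+/+ for the 7 genes (red) and for the genes tested of 8 related lists (blue), with a black line at each median. The lists around the 7 genes and the fibroblast and tendon markers have medians between -0.28 and 0.17, and skeletal muscle has -3.25. The 7 genes have -1.14, but they were chosen by this difference, so their distance from the lists follows from the choice.

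Across the 18 libraries, which were taken to share 6 embryos and differ mainly by tissue, the 7 genes formed more than one pattern of log2 CPM. *Mfap4* and *Ptn* were most alike (Pearson's r = 0.96), followed by *Penk* and *Thbs3* (0.90) and by *Tppp3* and *Zfp185* (0.76). *Tppp3* and *Ptn* ran in opposite order (-0.64), as did *Tnn* and *Mfap4* (-0.63). The gene most like *Mfap4* of all genes tested was *Fbn1*, fibrillin, the main microfibril protein (r = 0.98), and that most like *Ptn* was *Six2*, a homeobox transcription factor gene (0.98). For *Penk* it was *Adamtsl4* (0.93), for *Thbs3* *Igfbp7* (0.93), for *Tnn* *Eif4a1* (0.93), for *Tppp3* *S100a1* (0.88) and for *Zfp185* *Mlf2* (0.86). *Fbn1* itself had a log2 fold change of -0.79 (SE 0.24) in bone and 0.36 (SE 0.22) in MC, with limma adjusted p of 0.312 and 0.445. These correlations describe how levels run over tissues and embryos, and carry no test.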

How the data were processed

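RNA from laser-captured mandibular tissue was amplified (NuGEN Ovation), made into libraries (Nextera XT) and sequenced in paired ends. The authors trimmed reads with cutadapt, aligned them to mm10 with STAR and counted fragments over exons without regard to strand with featureCounts v1.5.0-p1 and an Ensembl GRCm38 annotation, so the deposited values are raw counts per gene. Amplification without molecular identifiers means that fragments are not independent molecules.

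Software was R 4.3.3, limma 3.58.1, edgeR 4.0.16 and statmod 1.5.0. FPKM was computed here from exon length, and genes were retained when 50% or more of the libraries exceeded 1 FPKM. TMM normalization, voom and lmFit with a mean per group (6 groups), eBayes and Benjamini-Hochberg adjustment over 11469 genes followed, and a gene was called at an adjusted p below 0.05. The comparison of control cartilages used the embryo as a random block (correlation -0.02), the embryo being inferred from the description labels. Normalized CPM used TMM library sizes. Folds are from the fit, except between 2 single libraries. DESeq2 1.42.0, edgeR's quasi-likelihood test and the settings in the closing section were alternatives. The fit was also run on simulated counts, and nothing here rests on that run.

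The 7 genes, the related lists and the muscle comparison were chosen with earlier results of these data known. From lists with 0 calls, the genes of highest mean FPKM in bone were named, and the gene most correlated with each of the 7. In the thrombospondin and elastic fiber lists, genes at an unadjusted p below 0.05 were named after their values were seen. Promoters are from RefSeq (GRCm38.p6), for which 4 of 7 genes matched. Libraries of equal number and tissue deviated together little, with mean correlations of 0.07 (bone), -0.09 (MC) and 0.13 (condylar cartilage). In condylar cartilage these correlations ran from 0.04 to 0.28, all positive.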

Additional observations from a re-analysis of the deposited data

How the results depend on the processing

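In bone, limma called 10 genes and 3 of the 7. The number of genes became 141 with the 6 bone libraries alone and 0 when muscle was added to that fit as a covariate, 589 with sample quality weights, 21 with filterByExpr, 53 without a filter, 18 with DESeq2 and 4 with edgeR. Of the 7, the bone libraries alone called 7, quality weights 7 and the bone libraries with the muscle covariate 0. Leaving out each library in turn gave 0 to 91 genes and 0 to 3 of the 7, with 91 and 3 without Fgfr2+/+ replicate 3 and 0 of both without Fgfr2+/+ replicate 1. All 7 stayed negative in bone under each setting run. The genes were chosen by these bone values, so their counts and signs there support nothing.

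In MC, where limma called 0 genes, edgeR called 90 (1 of the 7), DESeq2 423 (2 of the 7), no filter 45 and the embryo block 1. Leaving out single libraries gave 0 to 138 genes and 0 to 1 of the 7, with 138 genes without Fgfr2+/+ replicate 2 and 42 without replicate 3. In condylar cartilage, DESeq2 called 3 genes and quality weights 2, none among the 7. For the difference between cartilages, DESeq2 called 96 genes (1 of the 7). Control condylar cartilage against MC gave 3942 to 7019 genes and 5 to 6 of the 7 over 15 settings. The cause of these shifts was not tested.

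Signs changed only for values that passed in no setting. With quality weights, log2 fold changes in condylar cartilage were 0.13 for *Zfp185*, 0.019 for *Tnn* and 0.58 for *Ptn*, and the difference between cartilages was 0.10 for *Thbs3*. Leaving out single libraries, *Thbs3* ran from -0.33 to 0.23 in MC and from -0.49 to 0.069 in the difference, and *Zfp185* from -0.11 to 0.57 between control cartilages. In condylar cartilage *Penk* ran from -0.40 to 0.042, *Zfp185* from -0.27 to 0.23 and *Ptn* from -0.46 to 0.38.

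A replicate block pairing libraries of equal number was tried, although libraries of equal number deviated together little. It gave 554 genes and 7 of the 7 in bone and 7 genes in condylar cartilage with the 6 libraries of the tissue alone, and 7 genes in bone with 18 libraries. *Tppp3* in mutant MC rests on at most 11 fragments per library, so small differences were not detectable at this depth.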
